A study of Mus musculus with 40 samples.

Results

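The period genes Per1, Per2 and Per3 and the cryptochrome genes Cry1 and Cry2 encode the repressor proteins of the circadian clock. They were chosen by name, as these 5 of the 51789 genes in the deposited table. No cutoff on a measured value was used, but earlier results of these data were known when they were chosen. Their RNA was followed over 20 groups of mouse melanoma cells, with 2 libraries per group and 40 libraries in all, in which the status of Bmal1 (gene symbol Arntl) was varied.

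In the mammalian clock, BMAL1 pairs with CLOCK, binds E-box sequences and switches on the Per and Cry genes, and the PER and CRY proteins return to the nucleus and block that pair. The nuclear receptors REV-ERBα and REV-ERBβ (Nr1d1, Nr1d2) repress through ROR elements, at which RORs activate, while DBP, TEF and HLF activate and NFIL3 represses through D-boxes. Cry1 carries E-box, D-box and ROR elements and is known as a late gene of the cycle, whereas Per1 also answers quickly to serum, cAMP and glucocorticoids.

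The study used QuantSeq, a 3′ mRNA sequencing method in which each transcript gives about 1 read from its 3′ end, to ask how loss of Bmal1 or an added Bmal1 changes melanoma cells. B16 Ctrl and B16 KO are a control clone and a Bmal1 knockout clone of B16-F10, a pigmented mouse melanoma line. YUMM2.1 and YUMM1.7 are lines from melanomas of genetically engineered mice, and aC3 is a single CRISPR Bmal1 knockout clone of YUMM2.1. Each of these 3 YUMM lines received an empty vector (EV), wild-type Bmal1 (WT) or dHLH-Bmal1 (dHLH), a mutant that lacks the part of the protein that contacts DNA but can still pair with Clock.

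For YUMM2.1 and aC3 the vectors were lentiviruses that express GFP, and the stable lines were sorted on it. By the study's methods these lines came from cells already carrying a Bmal1 promoter luciferase reporter, selected with blasticidin. Another passage of the methods does not name the reporter. How the YUMM1.7 lines were made is not given in the sources used here. In YUMM2.1 and YUMM1.7 the constructs were thus added to cells that keep their own Bmal1, and in aC3 to cells without it. A further set of YUMM2.1 EV, WT and dHLH cells carried a control hairpin (shNC) or 1 of 2 hairpins against Myh9 (shMyh9#2, shMyh9#4), the non-muscle myosin heavy chain, all under puromycin. By the study's methods the hairpins were added to the YUMM2.1 EV, WT and dHLH cells already made. Each knockout is 1 clone and each construct a pool made once, so that clone, transduction and construct cannot be told apart. Time of harvest and synchronization before RNA extraction are not given in the sources used here, and each value is 1 snapshot of genes that cycle.

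All 5 genes lie on different chromosomes in GRCm38 (annotation GENCODE M21). Per1 (ENSMUSG00000020893) is at chromosome 11, 69095217 to 69109960, plus strand. The other four are on the minus strand. Per2 (ENSMUSG00000055866) is at chromosome 1, 91415982 to 91459324. Per3 (ENSMUSG00000028957) is at chromosome 4, 151003652 to 151044665. Cry1 (ENSMUSG00000020038) is at chromosome 10, 85131700 to 85185064, and Cry2 (ENSMUSG00000068742) at chromosome 2, 92403646 to 92434043. Per3 lies inside Camta1 on the same strand, so reads at its 3′ end could be counted to either gene. Camta1 was at 2.47 to 12.2 CPM (counts per 1000000 after TMM scaling) and did not follow Per3 (r = -0.106 within experiments, 40 libraries).

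The regulatory sequence in front of the genes is shown for Per3, Cry1 and Per1, whose windows held the full E-box or D-box letters, because E-boxes, D-boxes and ROR elements are the sites through which the clock is known to drive these genes. The windows are RefSeq's, on GRCm38.p6, and run from 250 bases before to 50 after a start. They were searched on both strands for the E-box CACGTG, the E′-box CACGTT, the D-box forms TTATGTAA and TTATGCAA, the CRE TGACGTCA and the ROR element core AGGTCA. No stretch can count as both E-box forms. Capitals mark the matched letters below, except the E′-box of Cry1, which lies on the opposite strand and is left in lower case. The sequences read 5′ to 3′ on the strand of the gene, as follows.
Per3, chr4:151044811-151044880, minus strand: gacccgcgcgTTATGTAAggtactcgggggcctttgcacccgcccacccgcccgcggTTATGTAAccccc
Cry1, chr10:85185085-85185154, minus strand: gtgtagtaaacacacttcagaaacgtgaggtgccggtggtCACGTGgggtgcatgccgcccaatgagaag
Per1 with E-box, chr11:69098774-69098813, plus strand: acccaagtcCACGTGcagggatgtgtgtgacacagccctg
Per1 with D-box, chr11:69098904-69098943, plus strand: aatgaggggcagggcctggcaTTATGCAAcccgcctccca

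The Per3 window held 2 D-boxes TTATGTAA, at -205 to -198 and -158 to -151 from the start. Of 32851 windows, 0.938% held that D-box and 0.0213% (7 windows) held it 2 or more times. The Cry1 window held an E-box at -60 to -55 and an E′-box on the opposite strand at -79 to -74. The window of the upstream Per1 start held an E-box at -166 to -161, a D-box TTATGCAA at -24 to -17 and an AGGTCA core on the opposite strand at -137 to -132. The Cry2 window held an E′-box on the opposite strand at -166 to -161, and the window of a second Per1 start held no match. Over all windows the E-box was in 7.15%, the E′-box in 4.68%, TTATGCAA in 0.743%, the CRE in 1.79% and AGGTCA in 16.3%. A match is a stretch of letters and not a measured binding site. Per2 has no window in the table used.

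**Figure D1:**
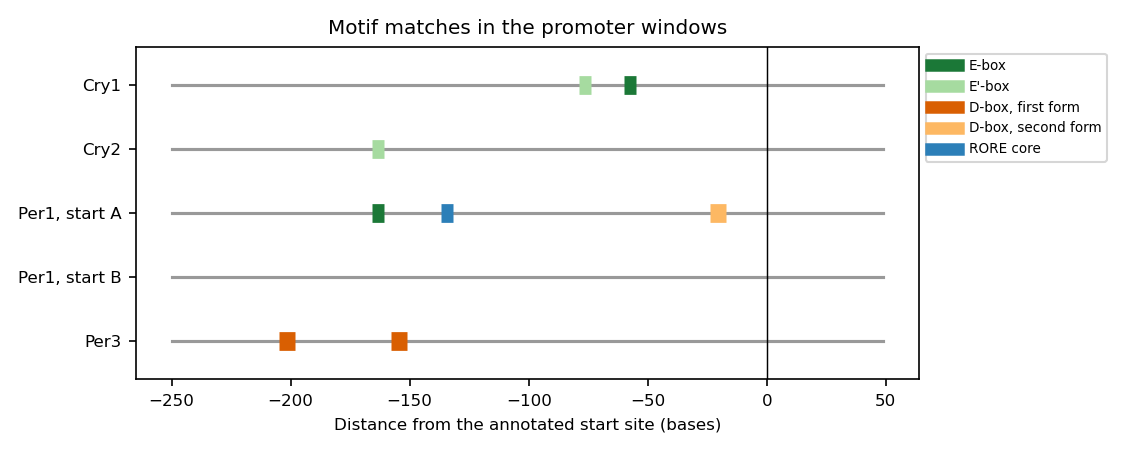
Motif matches in the promoter windows of Cry1, Cry2, Per1 (2 start sites) and Per3, drawn to scale along the distance from the annotated start site in bases. Coloured blocks are matches on either strand (first form of the D-box: TTATGTAA; second form: TTATGCAA). The 2 blocks of Per3 are D-boxes, at -205 and -158, while Cry1 has an E-box and an E′-box within 79 bases of its start.

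Libraries held 3643332 to 22970049 counts (median 10021164.5), so that 1 CPM stood for about 10 counts in the median library. The hairpins lowered their target. Myh9 was at 665.2 to 993.1 CPM with shNC, at 228.9 to 290.6 with shMyh9#2 and at 465.4 to 678.3 with shMyh9#4, and below shNC of the same construct in each library. Arntl counts were not taken as a check of the knockouts or constructs, because whether the 3′ reads cover an edit or come from a construct was not tested. B16 libraries had all 7 melanocyte markers (19750 to 26040 CPM summed), whereas in YUMM groups without a hairpin 3 of 7 (Dct, Mlana, Tyrp1) were at 0 counts. Epithelial and leukocyte markers summed to at most 1.774 and 5.282 CPM and both endothelial markers to 3.75 to 26.37 CPM over all libraries. Labels of 2 YUMM2.1 libraries, EV 2 and WT 1, are in doubt: in the values that accompany the study these labels stand exchanged (2 of 6 YUMM2.1 columns). On log2 CPM over all genes EV 1 correlated more closely with WT 1 (0.9887) than with EV 2 (0.972), and EV 2 most closely with WT 2 (0.9852). By these correlations, exchanged labels and libraries paired by replicate number cannot be told apart. YUMM2.1 values are given as deposited, with the exchange and without both libraries where it bears on them.

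Levels of Per2 and Per3 were lowest in B16 and in aC3 without WT-Bmal1, and Cry1 was highest in cells with dHLH-Bmal1. Counts come from transcript ends and do not grow with length, and on that basis levels are set side by side across genes on the CPM scale. Whether reads of each gene were captured and counted equally well was not tested. Cry1, a repressor of CLOCK-BMAL1, had its highest mean level in aC3 dHLH (56.8 CPM) and its lowest in B16 Ctrl (6.70 CPM). Per3, which is not needed for the cycle in the mouse, ran from 43.1 CPM in YUMM1.7 WT to 1.79 CPM in B16 KO. Per2, one of the repressors the cycle depends on, ran from 11.9 CPM in YUMM2.1 WT with shMyh9#4 to 0 in B16 KO. Cry2 had its highest mean in YUMM2.1 dHLH with shMyh9#4 (28.3 CPM) and its lowest in B16 KO (7.20 CPM). Per1 moved least, from 9.16 CPM in B16 KO to 3.45 CPM in aC3 EV.

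Ordered by mean level, most neighbouring groups overlapped in their 2 libraries each. Of 19 neighbour pairs, libraries did not overlap in 1 for Per1, 5 for Per2, 8 for Per3, 7 for Cry1 and 1 for Cry2. The same count was not made over all genes, so whether these counts are unusual was not tested. The steps for Cry1 that did separate were those after aC3 dHLH (56.8 CPM against 41.9 CPM in YUMM2.1 dHLH with shMyh9#4) and after YUMM2.1 dHLH with shNC (33.1 against 26.6 CPM in YUMM1.7 dHLH), and 5 among groups with a mean of 21.1 CPM or lower. For Per3 the 5 highest groups were the EV and WT groups with own or WT-Bmal1 and no hairpin (43.1 to 28.9 CPM), all of them above every hairpin group, and 4 of the steps among and after them separated. The 4 lowest Per3 groups were aC3 EV, aC3 dHLH, B16 Ctrl and B16 KO. The 4 lowest Per2 groups were the same. In the Per1 and Cry2 orders the steps that separated stood between ranks 2 and 3 and between aC3 EV and B16 Ctrl.

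**Figure D2:**
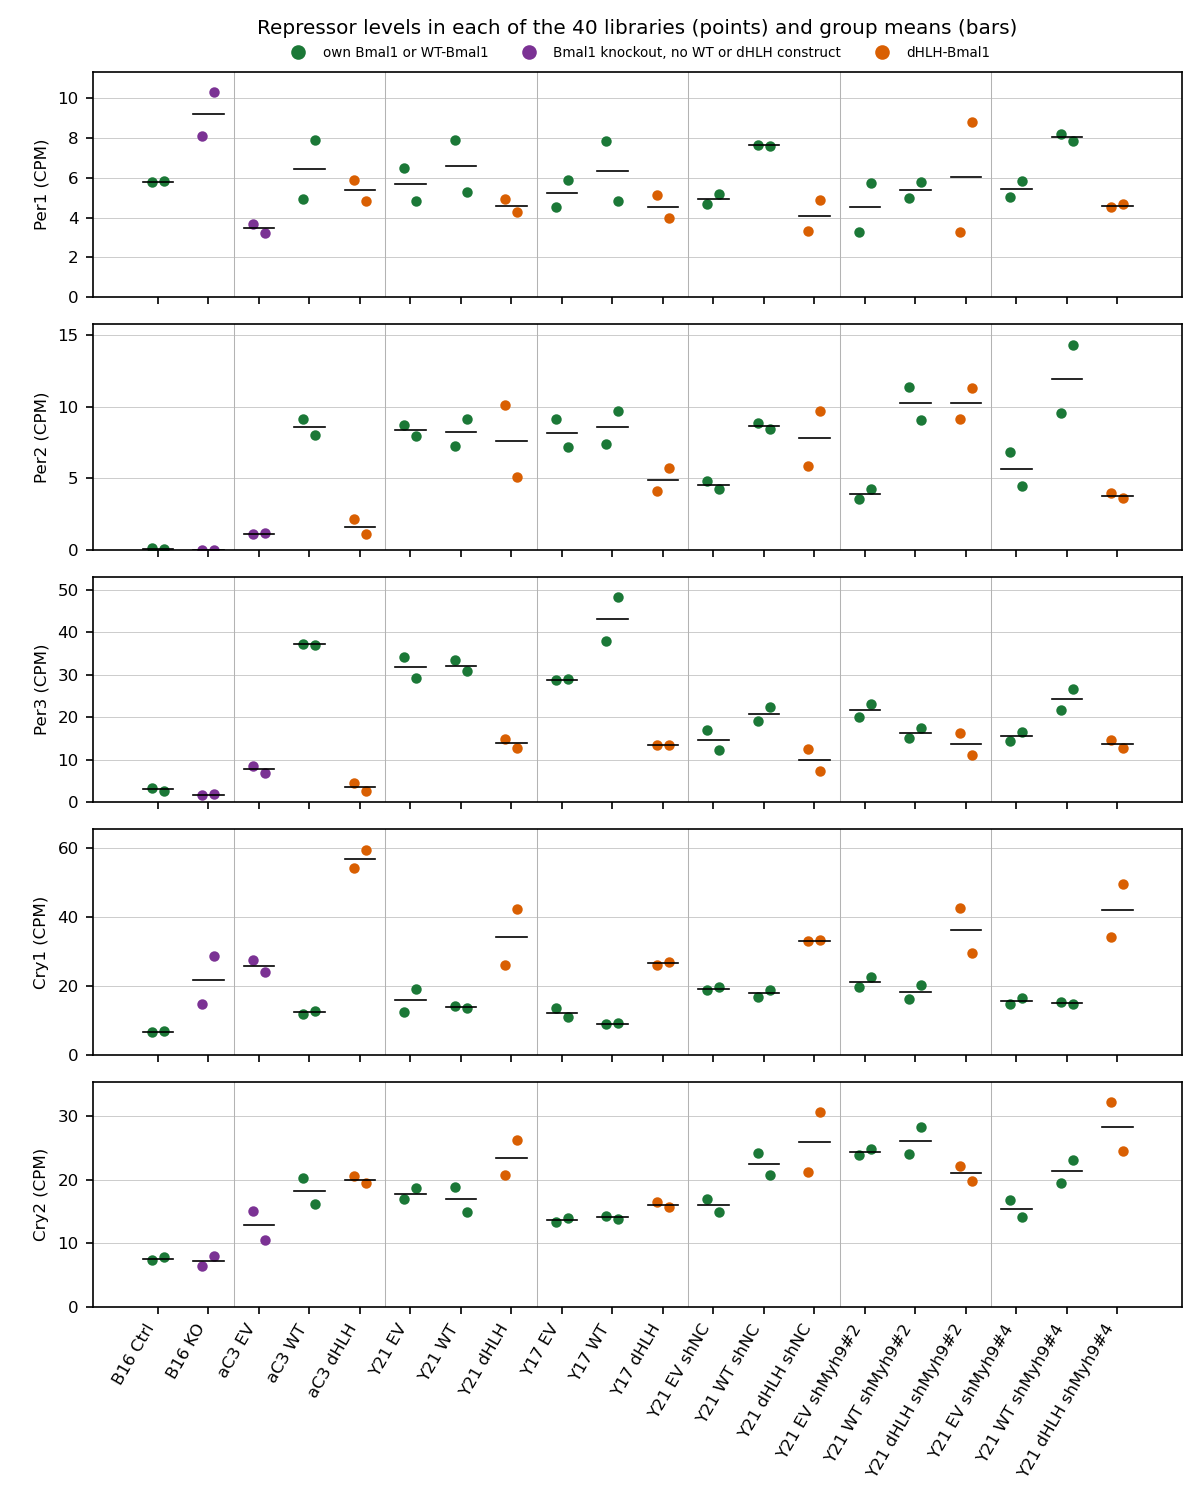
Level of each repressor (CPM, linear axes from 0) in each of the 40 libraries (points) with the group mean (bar), for the 20 groups. Orange points are libraries with dHLH-Bmal1, purple points Bmal1 knockout cells without WT or dHLH construct, and green points cells with their own or WT-Bmal1. Cry1 in the orange points lies between 26.02 and 59.52 CPM, above every green point, and the 4 lowest Per3 means are those of B16 Ctrl, B16 KO, aC3 EV and aC3 dHLH.

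WT-Bmal1 put back into the knockout clone raised Per2 and Per3 and lowered Cry1. Per2 was at 1.073 and 1.205 CPM (12 and 13 counts) in aC3 EV and at 9.159 and 8.007 CPM in aC3 WT. Per3 was at 8.581 and 6.951 CPM in aC3 EV and at 37.2 and 37.06 CPM in aC3 WT. Both genes thus stood apart without overlap, at several times the empty-vector level. The log2 fold change of WT against EV was 2.90 (SE 0.38, adjusted p = 0.000336) for Per2 and 2.25 (SE 0.19, adjusted p = 9.46e-06) for Per3 by the quasi-likelihood F test of edgeR, adjusted by Benjamini and Hochberg's procedure over the 13790 genes tested. All adjusted p-values below come from that test over all genes of their comparison unless another is named. As in any bulk sample, fewer cells expressing a gene and less RNA per cell cannot be told apart.

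Cry1 went the other way, from 27.53 and 24.1 CPM in aC3 EV to 11.9 and 12.83 CPM in aC3 WT (log2 fold change -1.06, SE 0.14, adjusted p = 0.000279). Per1 was at 3.665 and 3.244 CPM in aC3 EV and 4.91 and 7.904 CPM in aC3 WT, and Cry2 at 15.11 and 10.57 against 20.3 and 16.22 CPM. Neither passed the test (Per1 0.88, adjusted p = 0.0819; Cry2 0.51, adjusted p = 0.0989). In all, 3 of 5 repressors passed in this comparison, where 11.2% of all genes tested did.

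dHLH-Bmal1 in the same clone acted differently from WT-Bmal1 on these genes. Cry1 rose further, to 54.11 and 59.52 CPM, the highest 2 values among all libraries (log2 fold change against EV 1.12, SE 0.12, adjusted p = 0.00013). Per3 fell to 4.607 and 2.686 CPM (-1.09, SE 0.24, adjusted p = 0.0106), and Per2 stayed low at 2.157 and 1.074 CPM, one library of which lay within the EV range and one above it (0.50, adjusted p = 0.522). Cry2, at 20.49 and 19.45 CPM, passed the threshold narrowly (0.62, SE 0.19, adjusted p = 0.0458), and Per1 at 5.882 and 4.835 CPM did not (0.62, adjusted p = 0.232). This made 3 of 5 against 10.9% of all genes tested (1501 genes, and 262 without aC3 EV 2). Without aC3 EV 1 the Per3 value was -0.94 (adjusted p = 0.0843). The Cry2 call was lost without any 1 of the other 5 libraries of the clone (adjusted p from 0.0524 to 0.358, with a value of 0.39 without aC3 EV 2).

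Set directly against each other in aC3, WT and dHLH differed 10.2-fold in Per3 (log2 3.34, SE 0.22, adjusted p = 7.65e-07), 5.28-fold in Per2 (2.40, SE 0.36, adjusted p = 0.0052) and 4.56-fold in Cry1 in the other direction (-2.19, SE 0.13, adjusted p = 3.52e-07). These 3 of 5 compare with 0.877% of all genes tested. The 3 comparisons in aC3 share their libraries in pairs, so they are not separate pieces of evidence. Without aC3 WT 1 the Per2 value was 2.31 (adjusted p = 0.104).

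In YUMM2.1 cells, which keep their own Bmal1, added WT-Bmal1 left the repressors without a detected difference. Per3 was at 34.27 and 29.32 CPM in EV and at 33.49 and 30.82 CPM in WT. Per2 was at 8.713 and 7.978 CPM in EV and at 7.261 and 9.175 CPM in WT. Libraries overlapped for every one of the 5 genes. With edgeR 0 of 5 passed, 0 at an unadjusted p under 0.05 and 0 by DESeq2, and of all 14323 genes tested 0% passed (98 at an unadjusted p under 0.05, 1 by DESeq2). With EV 2 and WT 1 exchanged, no repressor passed either, and the log2 fold change of Cry1 moved from -0.18 to 0.28 and that of Per1 from 0.21 to -0.50.

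dHLH-Bmal1 in YUMM2.1 gave again lower Per3 and higher Cry1. Per3 was at 14.95 and 12.84 CPM, below each EV and WT library (log2 fold change against EV -1.19, SE 0.18, adjusted p = 0.00815). Cry1 was at 26.02 and 42.43 CPM, against 12.45 and 19.08 CPM in EV (1.13, SE 0.30, adjusted p = 0.0498). The Cry1 libraries spread widely within both groups but did not overlap. With 2 of 5 repressors passing against 13.2% of all genes tested, Per1 (4.921 and 4.278 CPM), Per2 (10.13 and 5.11 CPM) and Cry2 (20.72 and 26.15 CPM) did not pass. With the replicate number as a block, which pairs the YUMM2.1 libraries, 3877 in place of 1894 of all genes passed, and the calls among the repressors stayed the same. With EV 2 and WT 1 exchanged, Per3 was at -1.28 (adjusted p = 0.000339) and Cry1 at 1.36 (adjusted p = 0.00563), and without both at -1.31 (adjusted p = 0.00664) and 1.44 (adjusted p = 0.0132). The Cry1 call rested on single libraries: without dHLH 2 its value was 0.72 (adjusted p = 0.213), without EV 1 it was 0.84 (adjusted p = 0.208), and without WT 1 or WT 2 the adjusted p was 0.0929 or 0.09.

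WT against dHLH in YUMM2.1 gave the same pair, Per3 at 2.3-fold (SE 0.18 on the log2 scale, adjusted p = 0.00797) and Cry1 at a log2 fold change of -1.31 (SE 0.30, adjusted p = 0.0317), 2 of 5 beside 13% of all genes (1868 genes, and 3727 with the block). With EV 2 and WT 1 exchanged the log2 values were 1.101 (adjusted p = 0.00132) and -1.08 (adjusted p = 0.0218). Without WT 1, neither passed (Per3 1.14, adjusted p = 0.0827; Cry1 -1.35, adjusted p = 0.185). Without dHLH 2 the Cry1 value was -0.91 (adjusted p = 0.132), and without WT 2 it was -1.26 (adjusted p = 0.149).

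Fibroblast markers moved with dHLH-Bmal1 in YUMM2.1, from 9.626 to 27.17 CPM summed in EV to 307 to 384.9 CPM in dHLH, with 3 of 4 tested markers higher, among them Col1a1 (4.45, adjusted p = 0.00399) and Col1a2 (5.08, adjusted p = 0.0106). The sum of the melanocyte list fell over the same libraries from 497.8 to 515.9 CPM to 81.38 to 94.01 CPM. Of its 7 markers 2 were tested and 1 was called lower, Sox10 at -2.82 (adjusted p = 0.000621). In aC3 the fibroblast sum was 10.28 to 11.96 CPM in EV and 8.38 to 12.74 CPM in dHLH, with 0 of 4 tested markers passing. The melanocyte sum in aC3 was 453.1 to 465.7 CPM in EV and 563.9 to 626.1 CPM in dHLH, with 1 of 2 tested markers called higher. In YUMM1.7 the fibroblast sum was 2264 to 2294 CPM in EV and 2157 to 2186 CPM in dHLH, with 0 of 5 tested markers passing. The melanocyte sum there was 14.16 to 14.79 CPM in EV and lower, at 10.71 to 12.77 CPM, in dHLH, with 0 of 2 tested markers passing. The part of these lists in the Cry1 and Per3 values was not tested.

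In YUMM1.7 dHLH-Bmal1 likewise went with lower Per3 and higher Cry1. Per3 was at 28.69 and 29.01 CPM in EV, 37.95 and 48.22 CPM in WT and 13.48 and 13.53 CPM in dHLH. Cry1 was at 13.63 and 10.86 CPM in EV, 8.909 and 9.102 CPM in WT and 26.15 and 27.06 CPM in dHLH. The 3 groups were separate for both genes and ran in opposite orders. dHLH against EV gave -1.09 for Per3 (SE 0.14, adjusted p = 0.00044) and 1.12 for Cry1 (SE 0.15, adjusted p = 0.0012), 2 of 5 repressors against 0.63% of all genes tested. WT against dHLH gave 1.68 for Per3 (SE 0.13, adjusted p = 2.25e-06) and -1.55 for Cry1 (SE 0.16, adjusted p = 2.83e-05), 2 of 5 against 2.57%. Without EV 2 the Cry1 value of dHLH against EV was 0.97 (adjusted p = 0.0532).

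WT against EV in YUMM1.7 gave 0 of 5 by edgeR beside 0.138% of all genes, with Per3 (0.59, adjusted p = 0.058) and Cry1 (-0.43, adjusted p = 0.397) being the 2 of 5 under an unadjusted p of 0.05. DESeq2 gave no adjusted p for any of the 5 there. Per2 was at 9.176 and 7.206 CPM in EV, 7.395 and 9.715 CPM in WT and 4.085 and 5.72 CPM in dHLH. The dHLH libraries were below the others, but the difference did not pass (dHLH against EV -0.73, adjusted p = 0.262; WT against dHLH 0.80, adjusted p = 0.103).

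YUMM2.1 cells with the control hairpin gave a smaller contrast. Cry1 was at 18.74 and 19.62 CPM in EV, 16.86 and 18.89 CPM in WT and 32.98 and 33.24 CPM in dHLH, the last clear of the others (dHLH against EV 0.79, SE 0.20, adjusted p = 0.00694). Cry2 was higher too, at 21.18 and 30.65 CPM in dHLH against 17.02 and 14.91 CPM in EV (0.69, SE 0.20, adjusted p = 0.018). Per3, at 12.43 and 7.459 CPM against 17.02 and 12.22 CPM, overlapped and did not pass (-0.50, adjusted p = 0.154). The 2 of 5 that passed stand beside 26.4% of all genes, the highest background among the construct comparisons. Without EV 1 the Cry1 value was 0.76 (adjusted p = 0.0619) and the Cry2 value 0.78 (adjusted p = 0.0526), and without dHLH 2 or EV 2 the Cry2 value was 0.41 (adjusted p = 0.247) or 0.59 (adjusted p = 0.144).

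WT against EV with shNC gave 1 of 5, Per2 at 8.836 and 8.436 CPM against 4.81 and 4.26 CPM (0.93, SE 0.32, adjusted p = 0.0413), where 22.3% of all genes passed. Leaving out any 1 of these 4 libraries, or either YUMM2.1 WT library with shMyh9#2, ended that call (adjusted p from 0.0523 to 0.205). WT against dHLH gave Per3 1.01 (SE 0.25, adjusted p = 0.0418) and Cry1 -0.89 (SE 0.20, adjusted p = 0.0275), 2 of 5 against 1.91%. The Cry1 call was lost without any 1 of its 4 libraries (adjusted p from 0.141 to 0.2), and the Per3 call with the replicate number as a block (adjusted p = 0.0512) and without dHLH 2 (0.74, adjusted p = 0.386), WT 1 (adjusted p = 0.103), WT 2 (adjusted p = 0.315) or any 1 of 6 Myh9 hairpin libraries (adjusted p from 0.051 to 0.0607). The fibroblast list again differed, from 10.76 to 12.83 CPM in EV over 69.51 to 75.17 CPM in WT to 293.3 to 323 CPM in dHLH, and Camta1, which spans Per3, was higher in dHLH than in EV (1.54, adjusted p = 0.0183). Their part in the Per3 and Cry1 values was not tested.

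**Figure D3:**
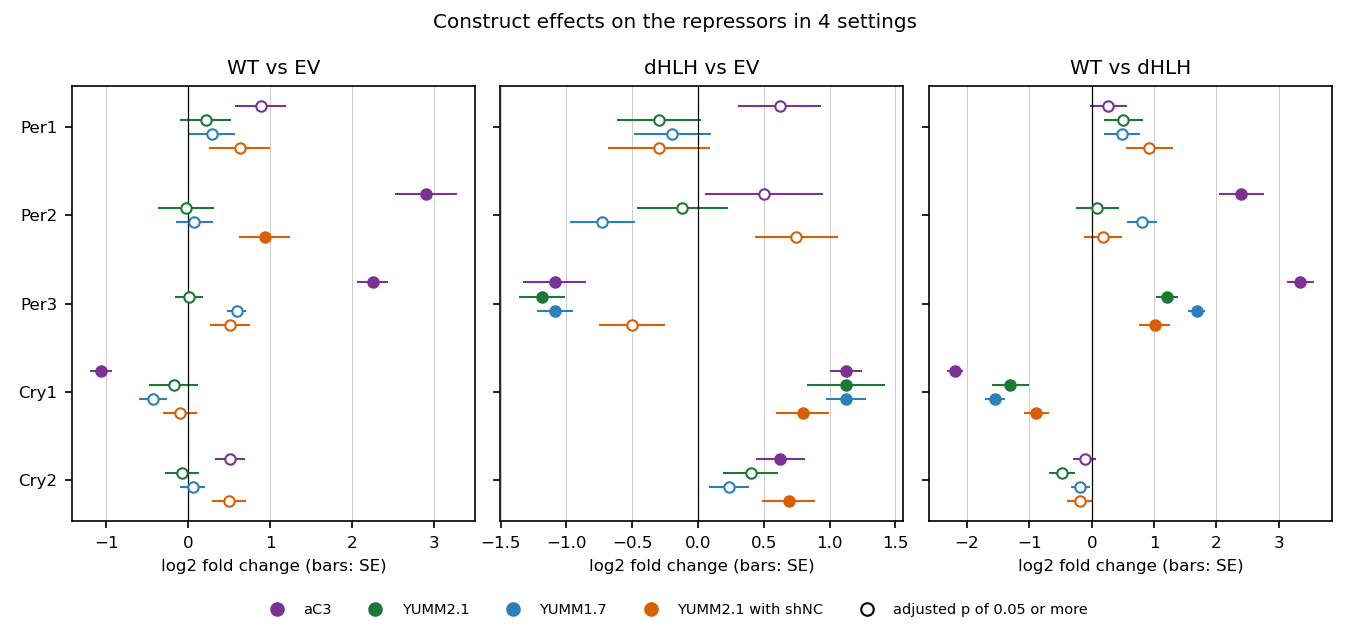
Log2 fold change (points, with SE as bars) of each repressor for WT against EV, dHLH against EV and WT against dHLH in aC3, YUMM2.1, YUMM1.7 and YUMM2.1 with shNC. Filled points passed an adjusted p under 0.05 and open points did not. In the middle panel Cry1 lies between 0.79 and 1.13 in all 4 settings and Per3 between -1.19 and -0.50, and in the left panel aC3 stands apart for Per2, Per3 and Cry1.

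Over the 4 settings together, Cry1 was called higher with dHLH-Bmal1 than with EV in 4 of 4 (1.73-fold to 2.18-fold) and Per3 lower in 3 of 4 (1.42-fold to 2.28-fold, the smallest not called). The shNC cells were made from the YUMM2.1 construct cells, so these 2 settings share their pools and the 4 are not independent. The background for a higher call was 4.79% in aC3, 6.51% in YUMM2.1, 0.21% in YUMM1.7 and 13.9% with shNC, and for a lower call 6.09%, 6.72%, 0.42% and 12.5%. Cry2 was called higher in 2 of 4 (1.18-fold to 1.61-fold). With edgeR, 0 of 4 were called for Per1 (0 at an unadjusted p under 0.05, 0 by DESeq2) and 0 of 4 for Per2 (2 unadjusted, 0 by DESeq2). DESeq2 called Cry1 in 3 of the 4 settings, Per3 in 2 and Cry2 in 1. It gave no adjusted p in 2 settings for Per2 and in 1 for each of the other genes. Against WT-Bmal1, dHLH cells had higher Cry1 (1.85-fold to 4.56-fold) and lower Per3 (2.01-fold to 10.2-fold) in 4 of 4. Put as WT against dHLH, the background for a higher call was 0.442% in aC3, 6.6% in YUMM2.1, 1.49% in YUMM1.7 and 1.08% with shNC, and for a lower call 0.435%, 6.44%, 1.08% and 0.828%.

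Cry1 was the 1 repressor whose level in dHLH cells did not overlap that in cells with their own or WT-Bmal1. In the 12 dHLH libraries Cry1 was at 26.02 to 59.52 CPM (median 33.67), and in the 24 libraries with their own Bmal1 or WT-Bmal1 at 6.525 to 22.48 CPM (median 14.66). YUMM2.1 libraries of 1 construct, with and without a hairpin, trace to the same pool, so the 12 and the 24 are not separate replicates. The 4 knockout libraries without a WT or dHLH construct, at 14.84 to 28.62 CPM, lay across the gap. Among 16619 genes, Cry1 was the 1 gene (0.00602%) whose dHLH range lay wholly outside the range of the 24. The count remained 1, Cry1, with DESeq2 size factors and was 2, with Cry1 among them, with library totals alone, in a comparison added after the values had been seen. Per3 was at 2.686 to 16.31 CPM in dHLH and overlapped the others, which ran from 12.22 to 48.22 CPM without B16.

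As a ratio, log2 of Cry1 over Per3 was above 0 in all 12 dHLH libraries (0.80 to 4.47) and in all 4 knockout libraries without a construct (1.68 to 3.90). In the 24 libraries with own or WT-Bmal1 it ran from -2.40 to 1.34, with 7 above 0. The Pearson correlation of Cry1 with Per3 after removing the mean of each experiment was -0.794 over 40 libraries and -0.825 over the 36 without B16. It was 0.607 for Per2 with Per3 and 0.398 for Cry1 with Cry2. These are descriptions over libraries that share groups and lines.

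**Figure D4:**
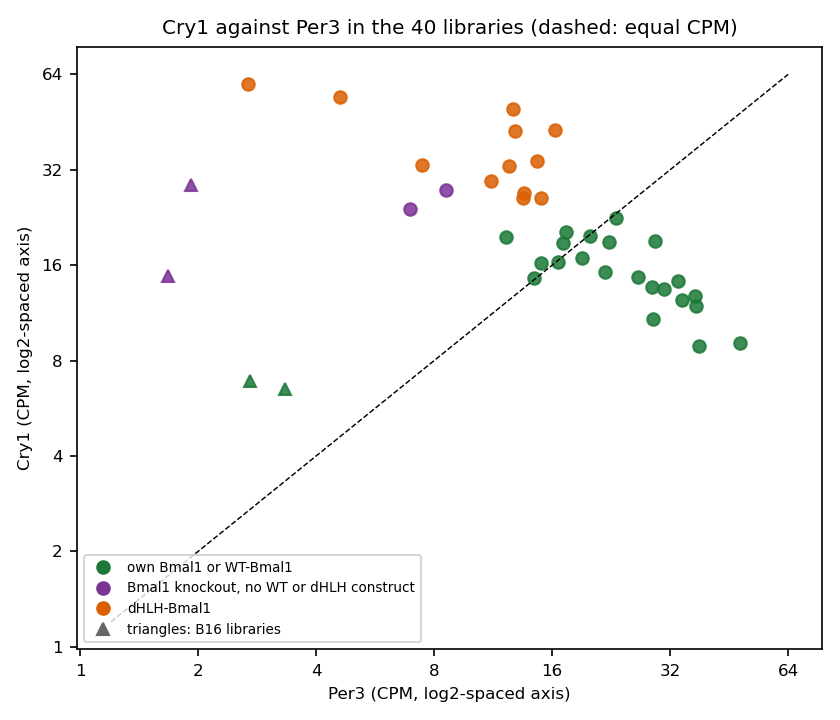
Cry1 against Per3 (both CPM on log2-spaced axes) in the 40 libraries, with the dashed line at equal CPM. Orange points are dHLH libraries, purple points knockout cells without a WT or dHLH construct, green points cells with own or WT-Bmal1 and triangles B16. All orange and purple symbols lie above the line, while 7 of the 24 green symbols do.

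Loss of Bmal1 was read in 2 lines, by comparisons of 1 clone each. In B16 KO against B16 Ctrl, Cry1 was at 14.84 and 28.62 CPM (364 and 597 counts) against 6.525 and 6.881 CPM (137 and 142 counts). Per1 was at 8.07 and 10.26 against 5.763 and 5.815 CPM, Per3 at 1.671 and 1.917 against 3.334 and 2.714 CPM, and Cry2 at 6.399 and 8.005 against 7.335 and 7.802 CPM. Both Cry1 and Per1 libraries of the knockout were above the control, both Per3 libraries were below it, and Cry2 overlapped.

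With edgeR, 0 of these 4 genes passed (1 at an unadjusted p under 0.05, 1 by DESeq2), beside 0.44% of all genes tested (64 genes, which became 6612 without KO 1 and 40 without Ctrl 2). The gene in question was Cry1 (log2 fold change 1.69, SE 0.36, adjusted p = 0.19). Its call depended on the procedure, since the value with DESeq2's Wald test was 1.696 (adjusted p = 0.00176), with no filter on low counts 1.69 (adjusted p = 0.00384), in 1 fit of all 40 libraries 1.69 (adjusted p = 3.49e-05) and with the replicate number as a block 1.61 (adjusted p = 0.0253). The KO libraries differed from each other, with values of 2.09 without KO 1 and 1.14 without KO 2. Per1 was at 0.66 (adjusted p = 0.425) and Per3 at -0.76 (adjusted p = 0.479).

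The knockout clone aC3 with empty vector set against YUMM2.1 with empty vector had less Per2 and Per3. Per2 was at 1.073 and 1.205 CPM against 8.713 and 7.978 CPM (-2.87, SE 0.39, adjusted p = 0.000828), and Per3 at 8.581 and 6.951 CPM against 34.27 and 29.32 CPM (-2.04, SE 0.20, adjusted p = 2.83e-05). Of the 5 repressors 2 passed, beside 1.95% of all genes. Cry1, at 27.53 and 24.1 against 12.45 and 19.08 CPM, did not pass (0.72, adjusted p = 0.27). With EV 2 and WT 1 exchanged the Per2 and Per3 values were -2.80 (adjusted p = 0.000395) and -2.13 (adjusted p = 3.25e-06). EV libraries of aC3 are also the controls of the WT comparison in that clone, and the clone and the knockout cannot be told apart here.

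The effect of WT-Bmal1 was larger in the clone without Bmal1 than in the line with it. The difference of WT against EV in aC3 minus that in YUMM2.1, from an interaction term, was 2.94 for Per2 (SE 0.51, adjusted p = 0.0387) and 2.25 for Per3 (SE 0.27, adjusted p = 0.00139), 2 of 5 repressors beside 0.118% of all genes. The Per2 call was lost without any 1 of 16 of the 22 libraries and without EV 2 and WT 1 of YUMM2.1 together (2.85, adjusted p = 0.0961). Cry1 was at -0.87 and did not pass, as 4 of 5 had an unadjusted p under 0.05. The effect of dHLH-Bmal1 did not differ detectably between the same lines, at 0.02 for Cry1 (SE 0.38) and 0.12 for Per3 (SE 0.30), with 0 of 5 by edgeR (0 unadjusted, 0 by DESeq2) beside 11.4% of all genes. Neither did YUMM1.7 minus YUMM2.1, with 0 of 5 for WT (1 unadjusted, 0 by DESeq2, 0% of all genes) and 0 of 5 for dHLH (0 unadjusted, 0 by DESeq2, 8.69%).

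B16 cells with Bmal1 were low in 4 of the 5 repressors when set against YUMM2.1. Per2 was found with 2 and 1 counts in the B16 Ctrl libraries and 0 and 0 in B16 KO, against 179 counts summed over the YUMM2.1 EV libraries. Scaled by library totals alone, without TMM, YUMM2.1 EV held 113 times the Per2 of B16 Ctrl (95% counting interval 38 to 553). It held at least 129 times that of B16 KO, from the limit of 3 counts over the group that a count of 0 allows (0.0678 CPM on that scale). Per2 fell under the count filter in the comparison of B16 KO with Ctrl and was not tested there, and no fold is given at these counts. Per3 (-3.41), Cry1 (-1.24) and Cry2 (-1.25) were lower too, so that 4 of 5 repressors were lower in B16 Ctrl than in YUMM2.1 EV, beside 26.8% of all genes. Line and experiment cannot be told apart in this comparison. Per1 differed by 0.01 (SE 0.30), and its libraries overlapped. Of all genes, 48.9% passed in either direction. Between YUMM1.7 EV and YUMM2.1 EV, 0 of 5 passed by edgeR (0 unadjusted, 0 by DESeq2), beside 32.7% of all genes.

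Myh9 hairpins gave no called repressor. Of 30 pairs of a gene and a comparison (5 genes, 2 hairpins, 3 constructs), 0 passed by edgeR, 3 had an unadjusted p under 0.05 and 0 passed by DESeq2. DESeq2 gave no adjusted p for 2 of the 30. The background was 6.65%, 4.76% and 0.559% of genes for shMyh9#2 in EV, WT and dHLH cells, and 1.71%, 0.236% and 15.1% for shMyh9#4. Nearest was Per2 with shMyh9#4 in dHLH cells, at 3.945 and 3.649 CPM against 5.833 and 9.729 CPM with shNC (-0.98, SE 0.35, adjusted p = 0.0666), followed by Cry2 with shMyh9#2 in EV cells, at 23.84 and 24.72 CPM against 17.02 and 14.91 CPM (0.61, SE 0.20, adjusted p = 0.0843). Neither pair of groups overlapped. The effect of a hairpin in WT or dHLH cells minus that in EV cells gave 0 of 20 by edgeR (4 unadjusted, 0 by DESeq2), where 5.18% and 0.741% of genes passed for WT and 3.29% and 8.51% for dHLH (shMyh9#2 and shMyh9#4).

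Cry1 was high in dHLH cells with every hairpin. It was at 42.63 and 29.59 CPM with shMyh9#2 and at 34.1 and 49.69 CPM with shMyh9#4, against 14.6 to 22.48 CPM in the EV and WT cells with these hairpins. Over the groups with a Myh9 hairpin, Per2 ran from 3.557 CPM in an EV library with shMyh9#2 to 14.32 CPM in a WT library with shMyh9#4.

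**Figure D5:**
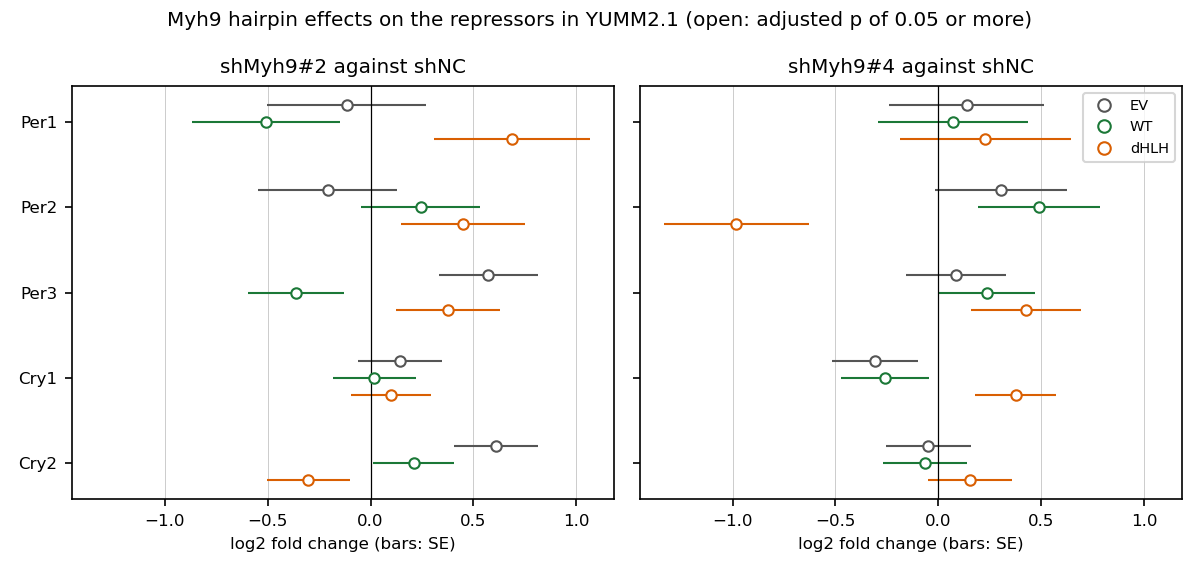
Log2 fold change (points, with SE as bars) of each repressor for shMyh9#2 and shMyh9#4 against shNC in YUMM2.1 EV, WT and dHLH cells. All points are open, since none of the 30 had an adjusted p under 0.05, and Per2 with shMyh9#4 in dHLH cells lies farthest from 0 at -0.98.

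The genes most like each repressor were found over 40 libraries among 10947 genes with a mean of 50 or more counts, by Pearson's r on log2 CPM after subtracting the mean of each experiment. For Per3 they were all clock output or clock genes, Dbp (0.903), Nr1d1 (0.896) and Nr1d2 (0.887). For Cry1 they were Anxa5 (0.861), an annexin that binds phospholipids, Nfil3 (0.805), the D-box repressor, and Calr (0.798), the chaperone calreticulin. Cry1 was most opposed to Nr1d2 (-0.875) and Nr1d1 (-0.837) among the clock genes listed below. For Per2 they were Dbp (0.73), Serinc3 (0.714) and H2afv (0.655), for Per1 Lancl1 (0.742), Tmem205 (0.673) and Glt8d1 (0.633), and for Cry2 Rlf (0.804), Kiz (0.759) and Zfp608 (0.758).

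Without subtracting the experiment means, line differences entered. Per3 was then nearest to Dbp (0.917), Per2 (0.847) and Nr1d1 (0.837), and Cry1 to Anxa5 (0.8), Nfil3 (0.779) and Mea1 (0.757). Per2 was nearest to Plvap (0.881), Vldlr (0.878) and Zeb1 (0.877), Cry2 to Ugdh (0.916), Ntn4 (0.909) and Kirrel3 (0.907), and Per1, with the weakest likeness, to Rnf167 (0.523), Arhgef11 (0.51) and Tef (0.49).

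The other arms of the clock were read from lists. Of all genes tested, 10.9% passed with dHLH-Bmal1 against EV in aC3, 13.2% in YUMM2.1, 0.63% in YUMM1.7 and 26.4% with shNC. With WT-Bmal1 against EV in aC3 11.2% passed, and in B16 KO against Ctrl 0.44%. Of the REV-ERB, ROR and Nfil3 list (6 genes, 5 tested in each line), dHLH-Bmal1 against EV gave 1 higher and 2 lower in aC3, 1 and 3 in YUMM2.1, 0 and 2 in YUMM1.7 and 1 and 2 with shNC. Nr1d1 was lower in all 4 (aC3 -1.82, YUMM2.1 -2.16, YUMM1.7 -1.37, shNC -1.27) and Nr1d2 in the 3 without a hairpin (-2.01, -1.50 and -1.17). Nfil3 was called higher in YUMM2.1 (1.94, adjusted p = 0.00474) and with shNC (0.65, adjusted p = 0.0207), Rorb lower in both (-1.61 and -2.12) and Rora higher in aC3 (0.72, adjusted p = 0.00575). The list's median was -0.28, -1.50, -0.11 and -0.30 in these settings, beside medians of all genes tested of 0.01, -0.01, -0.00 and 0.02. With WT-Bmal1 in aC3, 3 were higher, led by Nr1d1 (2.57, adjusted p = 0.000118) and Nr1d2 (1.57, adjusted p = 4.4e-06), and 2 lower, Nfil3 (-0.95) and Rorb (-0.48), with a median of 0.75 beside 0.01. In B16 KO 1 of 5 was called, Nr1d2 (-2.37, adjusted p = 0.0326), with a list median of -0.57 beside -0.01.

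Of the D-box activators, DEC and Chrono list (Dbp, Tef, Hlf, Bhlhe40, Bhlhe41, Ciart), WT-Bmal1 in aC3 gave 3 of 5 tested higher: Dbp (2.54, adjusted p = 6.58e-07), Tef (1.36, adjusted p = 4.4e-06) and Bhlhe40 (0.71, adjusted p = 0.00129). The list's median was 0.81 beside 0.01 over all genes tested. dHLH-Bmal1 against EV gave 2 lower in YUMM2.1 (Dbp -1.50, Tef -1.03; median -0.66) and 2 in YUMM1.7 (Dbp -1.02, Tef -0.79; median -0.77). With shNC 1 was lower, Bhlhe40 (-0.76), while Dbp stood at 0.00, and in aC3 none was called (Dbp -0.30, adjusted p = 0.299; median 0.05). In aC3, Per3 was thus called lower with dHLH-Bmal1 while Dbp and Tef were not.

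Among the activators (Arntl, Arntl2, Clock, Npas2), Arntl was the gene called with WT-Bmal1 or dHLH-Bmal1 against EV. Whether its counts hold reads from a construct was not tested. Arntl was lower with WT-Bmal1 in aC3 (-0.83, adjusted p = 0.00356) and higher with dHLH-Bmal1 in YUMM2.1 (1.54, adjusted p = 0.00952), YUMM1.7 (1.05, adjusted p = 0.0136) and with shNC (0.60, adjusted p = 0.0159).

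The kinases, ubiquitin ligases and partners that act on the PER and CRY proteins (13 genes, 12 tested in each YUMM fit) gave few calls with dHLH-Bmal1 against EV. Of them 1 was lower in YUMM2.1 (Usp2, a deubiquitinase, -0.57, adjusted p = 0.0399) and 2 with shNC (Fbxw11 -0.35 and Cul1 -0.35, ubiquitin ligase subunits), and the list's medians lay between -0.03 and 0.07 in the 4 settings. Of all genes tested, 6.72% were lower in YUMM2.1 and 12.5% with shNC. Of the acute inducers that respond together with Per1 (9 genes), dHLH-Bmal1 gave 1 higher and 3 lower in both YUMM2.1 (median -1.05) and shNC cells (median -1.12), 1 higher and 0 lower in aC3 (Nr4a2, 0.76), and none in YUMM1.7. The immediate-early genes called were the same 4 in YUMM2.1 and with shNC: Nr4a1 (-3.34 and -3.45), Egr1 (-1.48 and -1.03) and Nr4a2 (-1.05 and -1.12) lower, and Junb (1.48 and 1.04) higher. Glucocorticoid targets (5 genes, 4 tested) were higher in 3 cases with shNC, namely Klf9 (1.32), Tsc22d3 (1.05) and Sgk1 (0.51), and in none of the other 3 settings. With shNC 13.9% of all genes tested were higher. Per1 itself was not called in any of these.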

How the data were processed

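RNA was sequenced as 40 QuantSeq FWD 3′ mRNA libraries. The authors aligned reads with bowtie2 to mm10 and estimated counts per Ensembl gene with RSEM (version 1.2.3 in the submitters' processing notes, another in the methods), and compared groups with DESeq2, taking a 5% false discovery rate. The deposited table holds these counts for 51789 genes, 51596 of them with a symbol, and no column of per-sample values was left unmapped (0 columns). Groups came from the sample labels, in which dHLH is abbreviated. The study names some sets as biological replicates. For the others nothing says that the 2 libraries came from separate cultures, so p-values measure only the spread between these libraries.

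Counts were tested with edgeR 4.0.16 in R 4.3.3 (TMM, filterByExpr, quasi-likelihood F test, Benjamini-Hochberg adjustment over all genes of a comparison, adjusted p under 0.05), with 1 fit each for B16, aC3, YUMM2.1, YUMM1.7 and the hairpin set, and 1 fit of the groups without a hairpin for line levels and interactions. SE is the log2 fold change over the square root of F. Tested on simulated counts, the procedure recovered 67% (B16 KO against Ctrl), 88.2% (aC3 WT against EV), 69.7% (the same in YUMM2.1), 93.7% (YUMM1.7), 72.4% (shNC) and 54.9% (WT effect in aC3 minus YUMM2.1) of genes changed by a log2 fold of 2, with 2.44% to 12.2% false calls. These rates of recovery do not hold for smaller changes, such as those of Cry1 (0.79 to 1.13) and Per3 (-1.19 to -0.50) with dHLH-Bmal1 against EV. Each simulation changed 200 genes, some by a log2 fold of 1, and gave 82 to 173 calls, false ones included. Intervals and floors (3 counts) cover counting error only. Depth, at about 10 counts per CPM, limits Per1 and Per2 most.

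Named were the 5 repressors, the 3 genes most correlated with each, and at most 4 called genes per clock list by size of the fold change. The members and lists were chosen with earlier results of these data known. Alternatives were DESeq2 1.42.0 (Wald test, size factors), other filters, 1 fit of all libraries, the replicate number as a block, each library left out, Spearman and group-mean likeness, and exchanged or omitted YUMM2.1 EV 2 and WT 1. Scalings of the comparison of dHLH ranges were added after the data were seen. In YUMM2.1 equal numbers deviated together in 3 of 3 pairs of groups (r 0.203 to 0.45), above the minimum of 0.1 set for pairing, so its numbers were taken as paired on that basis alone, which rests on the labels as deposited. The 1 pair of groups in B16 was above that minimum too (r = 0.123). The main fits of YUMM2.1 and B16 left the replicate number out of the model.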

Additional observations from a re-analysis of the deposited data

Results flagged for a closer look

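The effect of WT-Bmal1 on Per2 and Per3 differed between the knockout clone and the line with its own Bmal1, by a test of the difference itself. WT against EV in aC3 minus WT against EV in YUMM2.1 was 2.944 on the log2 scale for Per2 (edgeR adjusted p = 0.0387) and 2.254 for Per3 (adjusted p = 0.00139). In aC3 both WT libraries were above both EV libraries for each gene, and in YUMM2.1 they overlapped. With the labels of YUMM2.1 EV 2 and WT 1 exchanged the values were 2.81 (adjusted p = 0.00577) and 2.44 (adjusted p = 0.000157), and Per1 of the dHLH effect (1.27, adjusted p = 0.0437) was called as well. Without both libraries the Per2 value was 2.85 (adjusted p = 0.0961) and the Per3 value 2.43 (adjusted p = 0.0103), and the Per2 call was also lost without any 1 of 16 of the 22 libraries.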

How the results depend on the processing

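Of 30 calls among 149 pairs of a repressor and a comparison, none changed sign under any alternative run; 29 of 30 were kept with DESeq2 size factors, 29 with a mean of at least 10 counts, 30 without a filter, 25 in 1 fit of all 40 libraries, and 26 of the 28 for which DESeq2's Wald test gave an adjusted p. Calls in B16 went from 0 to 1 with DESeq2's Wald test, no filter, 1 fit of all libraries and the replicate block, and lay between 0 and 2 with 1 library left out. Calls in YUMM1.7 went from 4 to 2 with DESeq2's Wald test, which gave no adjusted p for 11 of 15 pairs, and to 2 in 1 fit of all libraries (Cry1 and Per3 of dHLH against EV, adjusted p 0.152 and 0.0533); left out, 3 to 5. With shNC, 5 became 3 in 1 fit of all libraries; left out, 2 to 6. Calls of line differences in construct effect went from 2 to 1 without YUMM2.1 EV 2 and WT 1 and to 3 with them exchanged; left out, 1 to 2. YUMM2.1 calls (4) lay between 1 and 4 with 1 library left out, aC3 calls (9) between 7 and 8, line levels stayed at 6 and the 3 hairpin counts at 0. The replicate block, with paired numbers in YUMM2.1, changed no call there. In B16 the 1 pair of groups was also above the minimum of 0.1 (r = 0.123), and the block there called Cry1 (adjusted p = 0.0253). Above it were also 3 of 36 pairs of groups in the hairpin set, and 0 of 3 each in aC3 and YUMM1.7. With shNC the block ended the Per3 call of WT against dHLH (adjusted p = 0.0512). In aC3 it added Cry2 of WT against EV (0.51, adjusted p = 0.0404). Narrow calls lost elsewhere were Cry1 of dHLH against EV in YUMM2.1 (adjusted p 0.05 with DESeq2 size factors, 0.0504 with a mean of 10 counts), Cry2 of dHLH against EV in aC3 (0.0776 with DESeq2, 0.13 in 1 fit) and, with shNC, Per2 of WT against EV (0.0574, 0.0503) and Cry1 of WT against dHLH (0.0788 in 1 fit); the cause was not tested. Counts over all genes, which give the backgrounds, moved as follows. In B16 they were 64, with 433 by DESeq2, 444 without a filter, 1952 in 1 fit of all libraries and 249 with the block. Without a filter they went in aC3 WT against dHLH from 121 to 396, in YUMM2.1 from 0, 1894 and 1868 to 24, 3102 and 2970 (WT against EV, dHLH against EV, WT against dHLH), in YUMM1.7 from 19, 87 and 355 to 246, 331 and 684, with shNC (WT against dHLH) from 284 to 559, and for WT in aC3 minus YUMM2.1 from 19 to 132 (90 by DESeq2). In 1 fit of all libraries the aC3 counts of 1544, 1501 and 121 became 391, 160 and 18, those of YUMM2.1 0, 3488 and 3398 and those of YUMM1.7 0, 4 and 27. The block gave 280 in aC3 WT against dHLH and 2, 3877 and 3727 in YUMM2.1. With YUMM2.1 EV 2 and WT 1 exchanged, 101 and 4114 genes passed for WT and dHLH against EV, 500 for WT in aC3 minus YUMM2.1 and 533 in place of 314 for aC3 EV against YUMM2.1 EV, and without both 40 for WT against EV, 957 for WT against dHLH and 189 for the line difference. With 1 library left out, they ran from 40 (without Ctrl 2) to 6612 (without KO 1) in B16, from 510 to 2271, 262 to 2016 and 31 to 368 in aC3, from 0 to 1, 644 to 1586 and 283 to 1932 in YUMM2.1, from 2 to 165, 22 to 197 and 106 to 308 in YUMM1.7, from 1793 to 3558, 2409 to 4086 and 97 to 318 with shNC, from 4 to 38 for WT in aC3 minus YUMM2.1, from 89 to 463 for the line difference and from 194 to 2602 (main 2248) for shMyh9#4 in dHLH cells. Of the hairpin counts over the other alternatives, those of shMyh9#4 in WT cells moved most, from 35 to 20 in 1 fit, 23 with the block, 244 by DESeq2 and 305 without a filter. Of the 15 genes named for likeness, 8 were kept with Spearman's rho and 9 over group means.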
